A study of Mus musculus with 12 samples.

Results

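The genes described here encode the proteins of the cytosolic ribosome. They are the rows of the expression table whose symbol has the form of a large subunit (Rpl) or small subunit (Rps) ribosomal protein gene, together with Rplp0, Rplp1, Rplp2 and Rpsa, and without the pseudogene rows marked -ps. This gave 88 genes of the 47480 symbols in the table. RNA was sequenced from trigeminal nerve, the sensory nerve of the face, of mice that all carried floxed Nf1 on both alleles (Nf1 flox/flox). The 6 samples labelled normal nerve lacked Cre (PostnCre-), and the 6 labelled plexiform neurofibroma, a benign nerve sheath tumour, carried it (PostnCre+). Nf1 encodes neurofibromin, a brake on RAS. The Cre is named for Postn, the periostin gene, the share of cells that recombined is not stated, and genotype and tumour state coincide. Sex, age and batch are not given, and the labels do not say that the samples came from separate animals.

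A ribosome is built from a small subunit, which reads the mRNA, and a large subunit, which joins amino acids. Each holds ribosomal RNA and many proteins, most of them present in a single copy, so their genes are usually transcribed in step. In mammals these mRNAs begin with a tract of pyrimidines right at the cap (the TOP motif), through which mTORC1 and LARP1 set how much of them is translated. Schwann cells draw on mTORC1 activity while they grow and myelinate. RNA levels, which were measured here, say nothing of translation.

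The start regions of the genes that rose most and least are shown because the tract lies in them. For each gene the sequence runs from 50 bases before the RefSeq transcription start to 25 bases from it, on the coding strand of GRCm38.p6, and capitals mark every unbroken run of at least 8 pyrimidines (C or T). The genes with large rises were Rpl41 (chr10:128549144-128549218, minus strand), Rpl12 (chr2:32961662-32961736, plus strand), Rps12 (chr10:23787185-23787259, minus strand), Rpl35 (chr2:39005107-39005181, minus strand) and Rps15 (chr10:80292381-80292455, plus strand).
Rpl41: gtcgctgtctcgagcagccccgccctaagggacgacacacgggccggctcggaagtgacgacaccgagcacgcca
Rpl12: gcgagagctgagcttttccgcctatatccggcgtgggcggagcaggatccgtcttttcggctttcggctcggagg
Rps12: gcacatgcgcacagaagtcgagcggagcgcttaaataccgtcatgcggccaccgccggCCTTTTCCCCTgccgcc
Rpl35: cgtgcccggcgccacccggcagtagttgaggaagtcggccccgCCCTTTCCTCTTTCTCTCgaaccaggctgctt
Rps15: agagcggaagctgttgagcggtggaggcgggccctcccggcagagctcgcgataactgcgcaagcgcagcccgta
Those with small changes were Rpl15 (chr14:18270962-18271036, minus strand), Rps18 (chr17:33955641-33955715, minus strand), Rpl22l1 (chr3:28805458-28805532, plus strand), Rpl7l1 (chr17:46782632-46782706, minus strand) and Rpl34 (chr3:130730374-130730448 and chr3:130730313-130730387, minus strand, for its upstream and downstream listed starts).
Rpl15: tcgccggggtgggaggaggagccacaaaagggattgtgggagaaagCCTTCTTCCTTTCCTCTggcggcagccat
Rps18: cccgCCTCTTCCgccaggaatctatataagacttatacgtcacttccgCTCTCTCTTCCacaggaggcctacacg
Rpl22l1: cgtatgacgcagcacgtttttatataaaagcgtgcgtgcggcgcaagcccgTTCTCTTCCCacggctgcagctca
Rpl7l1: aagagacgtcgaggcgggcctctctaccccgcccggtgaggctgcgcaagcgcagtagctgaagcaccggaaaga
Rpl34 upstream start: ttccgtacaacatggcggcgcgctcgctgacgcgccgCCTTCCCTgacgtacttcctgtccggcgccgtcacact
Rpl34 downstream start: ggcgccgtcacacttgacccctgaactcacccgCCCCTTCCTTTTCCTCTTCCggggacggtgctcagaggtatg
Runs stood on both sides. Rpl35, which rose, held one of 18 bases, and Rpl34, whose small change depends on a pseudogene row described later, held one of 20 bases at the downstream start and one of 8 at the upstream start. No run of at least 8 was found in the windows of Rpl41, Rpl12, Rps15 and Rpl7l1. Shorter runs, such as tcttttc just after the listed start of Rpl12, were not marked. The listed start may differ from the one used in nerve.

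Of the 88 genes, 63 had an entry in the RefSeq start table, 10 of them with more than 1 start. At least 1 window of a gene held a pyrimidine run in 40 of the 63 (63.5%), compared with 32.4% of the 27025 genes in the table. A run counted wherever it lay in the window, whereas the TOP motif lies at the cap, so this is not a count of TOP motifs. The ETS core CCGGAAG, or its reverse complement CTTCCGG, was searched from 250 bases before the start to 50 after it, and it was found in 26 of the 63 (41.3%) and in 9.93% of all genes. The YY1 core AAGATGGC or GCCATCTT was found in 6 of the 63 (9.52%) and in 3.19% of all genes. The E-box CACGTG, which MYC and related factors bind and which reads the same on both strands, was found in 6 of the 63 (9.52%) and in 8.09% of all genes. A match describes the letters only.

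The targeted gene, Nf1, was lower in the tumours, at 83.5 ± 8.10 CPM against 131 ± 35.7 CPM in normal nerve (SD, n = 6 each; log2 fold change -0.65, edgeR adjusted p = 0.0179); it lies on GRCm38 chromosome 11 from 79339693 to 79581612. Levels are given as CPM, in which each count is divided by the TMM-scaled size of its library, and total counts ran from 14160025 to 19989351 per library. Schwann markers summed to 4397 to 11420 CPM in normal nerve and 9965 to 17605 CPM in the tumours. Of the 8 markers, 4 were called higher and 0 lower, and none was at 0. Calls in this and the following lists stand beside 10% of all tested genes called higher and 8.63% lower. Fibroblast and perineurium markers summed to 301 to 1103 and 1226 to 2487 CPM (4 of 7 higher), and macrophage markers to 32.5 to 144 and 102 to 206 CPM (2 of 6 higher). Sensory neuron markers (2981 to 6264 and 4300 to 5662 CPM) had no call in 10, endothelial markers had 1 of 5 called lower, and pericyte and smooth muscle markers had 1 of 5 called higher. Markers of the central nervous system, red cells, mast cells, skeletal muscle and lymphocytes had no call. Only 3 of 7 skeletal muscle markers and 4 of 8 lymphocyte markers passed the filter on counts and were tested. Those of adipocytes did not pass the filter on counts and were not tested, with 734 CPM in tumour replicate 1 and at most 6.40 CPM in any other library. In bulk tissue a change in the cells present and a change in RNA per cell cannot be told apart. The marker scores later entered as covariates are of lists without a call (sensory neuron, skeletal muscle and central nervous system). The skeletal muscle score used only the 3 tested markers. The part of the lists with calls in the results below was not tested. In all, 3 libraries stood apart. Normal nerve replicate 6 had the most red cell marker counts (4529 CPM) and the fewest sensory neuron counts (2981 CPM), normal nerve replicate 2 had the fewest Schwann counts (4397 CPM), and tumour replicate 1 had the most skeletal muscle and adipocyte counts (1517 and 734 CPM).

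Cytosolic ribosomal protein genes were higher in plexiform neurofibroma than in normal nerve, nearly all of them and by a similar amount. Of the 84 with enough counts to test, 75 were called higher and 0 lower (89.3% higher; edgeR quasi-likelihood test, Benjamini-Hochberg adjusted p under 0.05 over 17236 genes), against 10% of all tested genes called higher and 8.63% called lower. All 84 log2 fold changes were above 0. Their median was 0.48, a 1.39-fold rise, with quartiles of 0.40 and 0.53, and 55 of the 84 lay within 0.1 of it. The median of all tested genes was -0.02. In 50 of the 84 genes the lowest tumour library was above the highest normal library, as it was in 4.4% of all tested genes. With normal nerve replicates 2 and 6 and tumour replicate 1 left out, 77 were called higher (12.6% of all tested genes) and the median was 0.56. DESeq2 called 77 and limma-voom 78, against 13.1% and 16.6% of all genes they tested.

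The share of all counts held by the 88 genes shows the same difference library by library. In normal nerve replicates 1 to 6 it was 1.29%, 1.22%, 1.31%, 1.16%, 1.01% and 1.64%, and in the tumours it was 1.71%, 1.85%, 1.78%, 1.91%, 1.75% and 1.74%. The groups did not overlap, but normal nerve replicate 6 came close to the tumours and normal nerve replicate 5 lay lowest. The means were 1.27% ± 0.208 and 1.79% ± 0.0755 (SD, n = 6 each), so the tumours differed less among themselves than the normal nerves did. Each library held between 143641 and 342289 counts of these genes. The position of normal nerve replicate 6 was general: it was the highest normal library for 74 of the 88 genes.

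**Figure D1:**
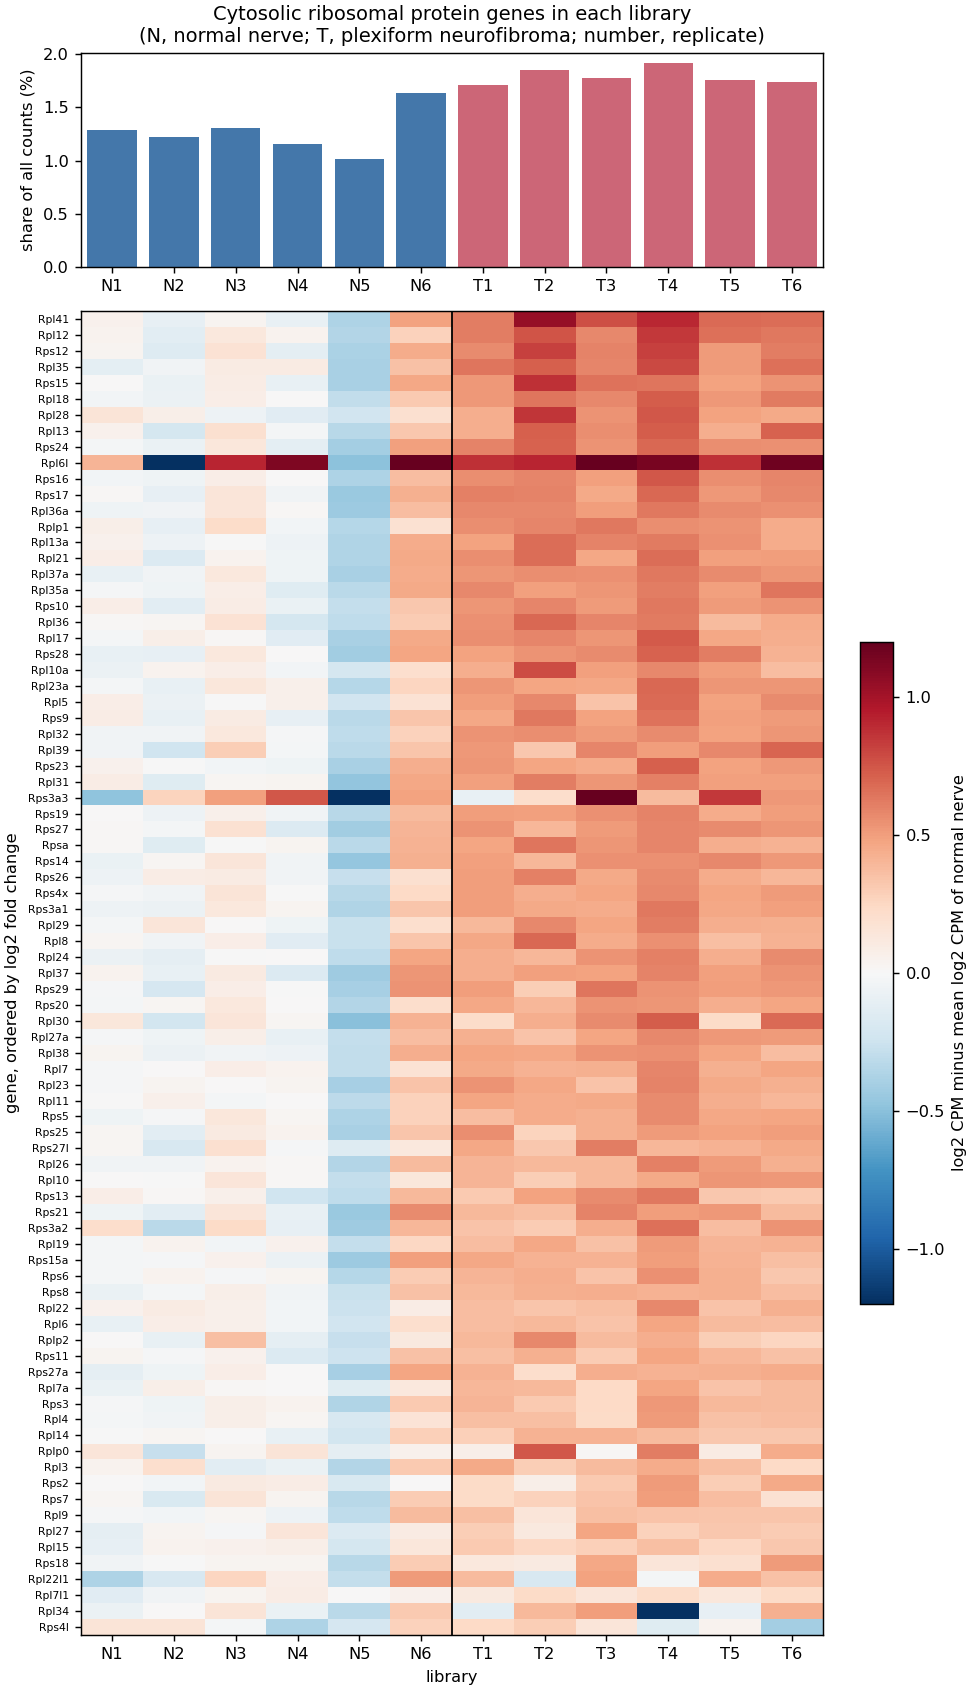
The share of all counts (%) held by the 88 genes in each library (bars, above) and, for the tested genes reported here, the log2 CPM minus the mean log2 CPM of the normal nerves (colour, below), with genes ordered by log2 fold change. The tumour columns are red in nearly every row, normal nerve replicate 6 is pale red and replicate 5 blue. The rows of Rpl6l, Rps3a3, Rpl34, Rplp0, Rps4l and Rpl22l1 are among those that break the pattern.

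The genes also moved in step across libraries once group differences were removed. With each group's mean removed, the correlation of a gene with the median of the other genes across the 12 libraries had a median of 0.912, and 48 genes were above 0.9. All libraries contribute to every such value, so this is a description. No such value is given for other genes, so moving in step is not shown to be particular to the members. The median log2 level of the members over normal nerve ran from -0.334 (replicate 5) to 0.332 (replicate 6) among the normal nerves. Among the tumours it ran only from 0.459 to 0.579, so the values rest mostly on differences between normal nerves. No value for the tumours alone is given. Among the genes with the weakest link to the rest were Rpl34 (r = 0.147), Rpl7l1 (r = 0.229), Rplp0 (r = 0.259) and Rps4l (r = 0.342).

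Among the 35 tested genes of the small subunit, 30 were called higher and 0 lower (10% and 8.63% of all tested genes). The median log2 fold change of the 35 was 0.47. Rps12, a protein of the small subunit head, ran from 97.2 to 173 CPM in normal nerve (median 123) and from 181 to 224 CPM in the tumours (median 193), without overlap. It had the largest change of the subunit (log2 fold change 0.64 ± 0.123 SE, adjusted p = 0.00568). Rps15 followed, at 134 to 243 CPM in normal nerve (median 172) and 246 to 323 CPM in the tumours (median 266; log2 fold change 0.60 ± 0.123 SE, adjusted p = 0.00678). In both genes normal nerve replicate 6 was the library next to the tumours.

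Several small subunit proteins are known for roles beyond the ribosome or for disease. Rps6, the substrate of the S6 kinases below mTORC1, ran from 213 to 333 CPM in normal nerve (median 272) and from 337 to 395 CPM in the tumours (median 360; log2 fold change 0.40, adjusted p = 0.0115). Rps19, which is mutated in human Diamond-Blackfan anaemia, ran from 77.4 to 127 CPM and from 133 to 148 CPM (log2 fold change 0.50, adjusted p = 0.00516). Rps14, lost in the human 5q- syndrome, rose by a log2 fold change of 0.49 (adjusted p = 0.0128), with its groups overlapping at 204 CPM in normal nerve replicate 6 and 199.9 CPM in tumour replicate 2. Rpsa, also known as the laminin receptor precursor, ran from 263 to 438.5 CPM and from 438.8 to 514 CPM (log2 fold change 0.50, adjusted p = 0.00831), so its groups touched but did not overlap.

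Of the small subunit genes, 5 did not pass the test: Rps18, Rps7, Rps3a2, Rps3a3 and Rps4l. Rps18 ran from 82.9 to 130 CPM in normal nerve (median 106) and from 112 to 149 CPM in the tumours (median 117; log2 fold change 0.25 ± 0.107 SE, adjusted p = 0.109). Only tumour replicates 3 and 6 stood above all normal nerves, at 144 and 149 CPM. Rps7 was at the threshold (log2 fold change 0.31, adjusted p = 0.0502), as was Rps3a2 (log2 fold change 0.42, adjusted p = 0.0507). Rps3a2, Rps3a3 and Rps4l are annotated as processed pseudogenes in GENCODE, as is Rpl6l of the large subunit, and reads of such copies cannot be separated with certainty from those of their parents. None of the 4 tested genes so annotated was called, beside 10% of all tested genes called higher and 8.63% lower.

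Among the 46 tested genes of the large subunit, 43 were called higher and 0 lower (10% and 8.63% of all tested genes). The median log2 fold change of the 46 was 0.48. Rpl41, which encodes a very short, basic protein, had the largest change of all members. It measured 186, 168, 183, 168, 139 and 250.1 CPM in normal nerve replicates 1 to 6 and 274, 370.3, 306, 336, 287 and 285 CPM in the tumours (182 ± 37.2 and 310 ± 36.7, SD, n = 6 each; log2 fold change 0.77 ± 0.127 SE, adjusted p = 0.003). All 6 tumours were above all normal nerves, and tumour replicate 2 was the highest.

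Rpl12, a neighbour of the P stalk at its base, ran from 95.8 to 149 CPM in normal nerve (median 126) and from 182 to 221 CPM in the tumours (median 192). Its log2 fold change was 0.67 ± 0.0965 SE (adjusted p = 0.00178). Rpl35 (log2 fold change 0.64), Rpl18 (0.59) and Rpl28 (0.59) were also among the 8 largest, with adjusted p between 0.00205 and 0.00307 and no overlap between the groups of any. The 8 genes with the largest changes were called in all 29 alternative fits, with a highest adjusted p of 0.019 for Rps15.

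**Figure D2:**
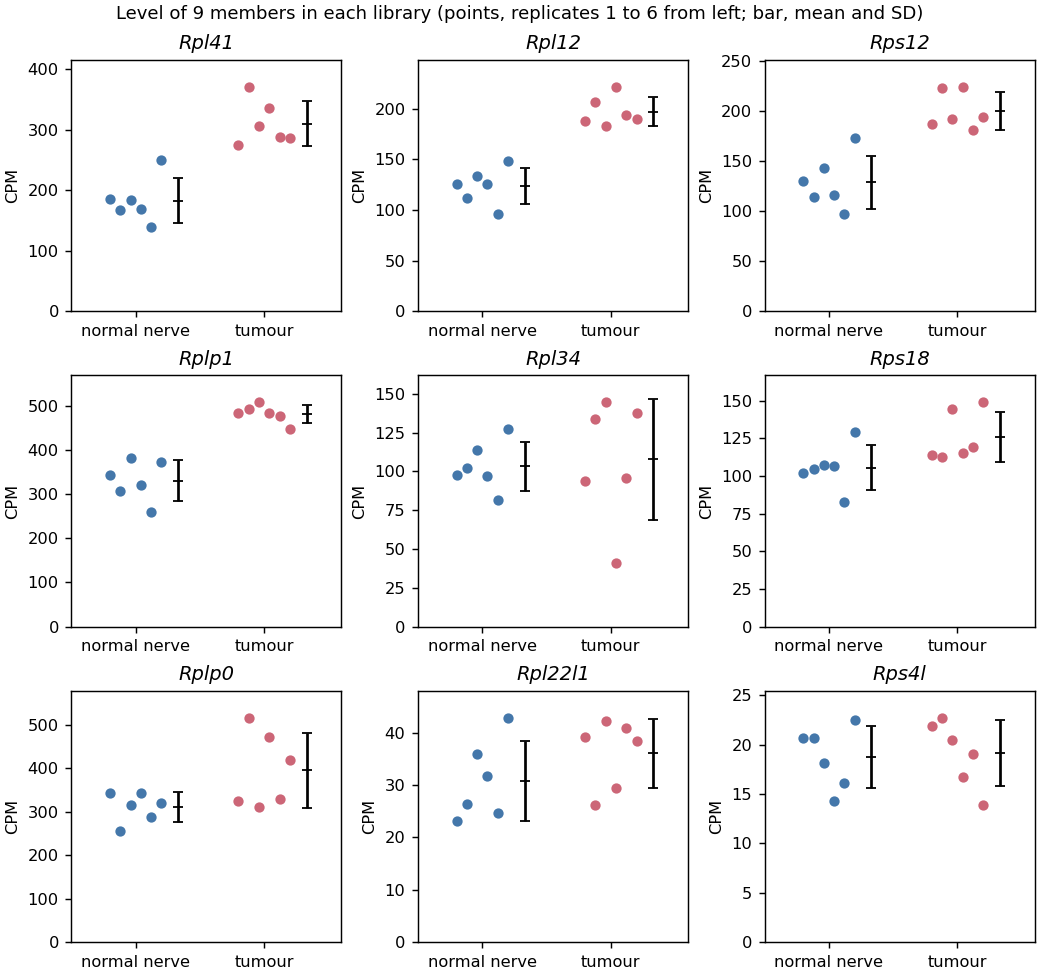
CPM of 9 members in each library (points, replicates 1 to 6 from left to right within a group; bars, mean and SD, n = 6). Rpl41, Rpl12, Rps12 and Rplp1 have every tumour point above the normal points, while Rpl34, Rps18, Rplp0, Rpl22l1 and Rps4l overlap.

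Rpl5 and Rpl11, which together with the smallest large subunit RNA can bind and inhibit Mdm2, the ligase that degrades p53, both rose. Rpl5 ran from 158 to 208 CPM in normal nerve and from 236 to 297 CPM in the tumours (log2 fold change 0.53, adjusted p = 0.00205). Rpl11 ran from 164 to 247 CPM and from 269 to 302 CPM (log2 fold change 0.46, adjusted p = 0.00474). Neither gene had overlapping groups.

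Small changes that still passed the test were those of Rpl15 (log2 fold change 0.29, adjusted p = 0.0108), Rpl27 (0.30, adjusted p = 0.0148) and Rpl9 (0.30, adjusted p = 0.0448). Rpl15 ran from 139.7 to 178 CPM in normal nerve and from 193 to 208 CPM in the tumours, without overlap. With libraries scaled on other genes under 1000 nt, neither Rpl15 (0.16, adjusted p = 0.0527) nor Rpl27 (0.17, adjusted p = 0.0655) passed. Of 29 alternative fits, Rpl15 was called in 27 (highest adjusted p 0.0547) and Rpl27 in 26 (highest adjusted p 0.126). The groups of Rpl27 and Rpl9 overlapped, and Rpl9 kept its call in only 2 of 12 fits that each left out 1 library (adjusted p 0.00235 to 0.0873). Rpl22l1, Rpl34 and Rpl6l were the large subunit genes that did not pass.

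The P stalk, the flexible arm of the large subunit that recruits elongation factors, is made of Rplp0, which anchors it, and of Rplp1 and Rplp2. Rplp1 had the highest level per length of all members, at 816 CPM per kb of its principal mRNA over all libraries. It ran from 259 to 383 CPM in normal nerve (median 332) and from 448 to 509 CPM in the tumours (median 485; log2 fold change 0.54, adjusted p = 0.00314). Rplp2 rose less (log2 fold change 0.38, adjusted p = 0.0198), with overlapping groups.

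Rplp0, often used as a reference gene for normalization, did not pass the test (log2 fold change 0.35 ± 0.134 SE, adjusted p = 0.0829). It measured 342, 255, 315, 344, 287 and 321 CPM in normal nerve replicates 1 to 6, and 325, 516, 312, 472, 330 and 420.2 CPM in the tumours. Tumour replicates 2, 4 and 6 were above all normal nerves, and tumour replicates 1, 3 and 5 were within their range, although the median log2 level of the members over normal nerve was between 0.459 and 0.579 in all 6 tumours.

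The most abundant members per length were examined next. Besides Rplp1, the 10 highest per kb of longest transcript were Rpl19, Rps15, Rpl26, Rpl10, Rps3a1, Rpl41, Rpl23a, Rps4x and Rpl13a, at 336 to 470 CPM per kb of principal mRNA. The choice depends on the length used: per kb of principal mRNA, Rps27 (436) and Rps21 (384), among others, were above Rpl13a (336). The log2 fold changes of the 10 ran from 0.42 (Rpl19) to 0.77 (Rpl41), and all were called. The order of Rpl26 (470), Rpl41 (452), Rps15 (451) and Rpl19 (442) in CPM per kb rests on differences smaller than the spread between libraries. Per-length levels depend on the annotated mRNA, so they are approximate for genes such as Rps20 and Rps15a, whose principal mRNA is annotated at 3706 and 5130 nt.

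Some ribosomal proteins have a second gene that encodes a related protein, and 4 of these paralogs or copies were compared with their partner inside each library, where library scaling cancels. Together with Rpl36al, a paralog of Rpl36a outside the naming pattern, this gave 5 pairs, for which a two-sided exact permutation test enumerated all ways to split the libraries 6 against 6 (smallest possible p 0.00216; Benjamini-Hochberg over the 5 pairs). Rpl7l1, a factor of large subunit assembly related to Rpl7, rose less than Rpl7. Its log2 ratio to Rpl7 was -2.76 ± 0.162 in normal nerve and -3.04 ± 0.0623 in the tumours (SD, n = 6 each), a difference of -0.28 with no overlap (exact p = 0.00216, adjusted p = 0.0108). Rpl7l1 alone ran from 39.0 to 45.5 CPM and from 46.6 to 50.4 CPM, the smallest change that passed the count test (log2 fold change 0.18 ± 0.0545 SE, adjusted p = 0.0363). That call held in 5 of 12 fits that each left out 1 library (adjusted p 0.0276 to 0.0811) and in 16 of 29 alternative fits in all, and with libraries scaled on other genes under 1000 nt the log2 fold change was 0.05 (adjusted p = 0.546).

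The log2 ratio of Rpl36al to Rpl36a, its X-linked partner, was also lower in the tumours, by 0.32 (exact permutation p = 0.0108, adjusted p = 0.0253), with Rpl36al at a log2 fold change of 0.25 (adjusted p = 0.0504) and Rpl36a at 0.55 (adjusted p = 0.00549). Rps4l, the pseudogene row related to Rps4x, had a log2 ratio lower by 0.47 (exact permutation p = 0.0152, adjusted p = 0.0253). Its level ran from 14.3 to 22.5 CPM in normal nerve and from 13.9 to 22.7 CPM in the tumours, so the ratio moved with Rps4x. In 4 of 12 fits without 1 library the adjusted p of that ratio was above 0.05, at most 0.0541.

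For the other pairs no difference in the ratio was detected. Rpl22l1, which can take the place of Rpl22, ran from 23.2 to 42.9 CPM and from 26.3 to 42.2 CPM (log2 fold change 0.23 ± 0.165 SE, adjusted p = 0.337), and Rpl22 rose (log2 fold change 0.40, adjusted p = 0.00468). The difference in their log2 ratio was -0.16 (exact permutation p = 0.405, adjusted p = 0.429). Tumour replicates 2 and 4, where Rpl22l1 was lowest among the tumours (26.3 and 29.6 CPM), had the lowest ratios of all libraries. Rps27l, known in human and mouse cells as a p53 target, rose with Rps27 (log2 fold changes 0.44 and 0.50, adjusted p = 0.00435 and 0.0106), and the difference in their log2 ratio was -0.08 (exact permutation p = 0.429, adjusted p = 0.429).

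**Figure D3:**
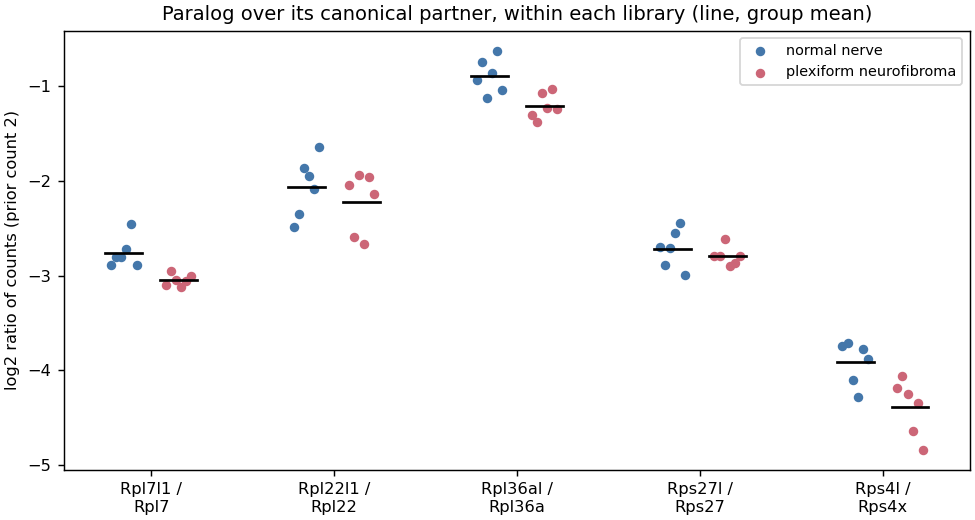
Log2 ratio of the counts of a paralog to those of its partner (prior count 2) in each library, for 5 pairs (points, libraries; lines, group means, n = 6 each). The normal and tumour points of Rpl7l1/Rpl7 are apart, and those of Rpl36al/Rpl36a, Rps4l/Rps4x and Rpl22l1/Rpl22 overlap in part. The tumour points of Rps27l/Rps27 lie within the range of the normal points.

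There were 4 members with too few counts to test. Rpl10l and Rps12l1 had 0 counts in every library. Rpl39l reached at most 3 counts in a library. Rpl3l, the paralog of Rpl3 in heart and skeletal muscle, reached 10.7 CPM in tumour replicate 1 and 3.04 CPM in normal nerve replicate 3 and at most 0.530 CPM elsewhere. Those libraries also had the highest skeletal muscle marker sums of their groups, 1517 and 372 CPM. Rpl3 itself rose by a log2 fold change of 0.35 (adjusted p = 0.0327), a call lost in 7 of 12 fits that each left out 1 library (highest adjusted p 0.0737).

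Pseudogene rows matter here because ribosomal protein genes have many retrocopies. The table holds 270 rows marked -ps for these genes, of which 57 had no count, 53 were tested, 25 were called higher and 0 lower (10% and 8.63% of all tested genes). Rpl35a-ps2, Rpl35a-ps3, Rpl35a-ps4 and Rpl35a-ps6, each counted among the called rows, had identical values in every library, so the rows are not all separate signals. Together the -ps rows held 0.0550% of the counts in normal nerve and 0.0831% in the tumours. For Rpl34 such a row changed the result. Rpl34 measured 97.5, 102, 114, 96.9, 81.6 and 128 CPM in normal nerve replicates 1 to 6 and 93.7, 134, 144, 41.1, 95.7 and 137 CPM in the tumours (log2 fold change 0.06 ± 0.243 SE, adjusted p = 0.882). Rpl34-ps1 stayed between 2.58 and 3.96 CPM in normal nerve, and measured 40.5, 3.37, 5.73, 106, 38.7 and 3.68 CPM in the tumours. The 3 tumours with high Rpl34-ps1, replicates 1, 4 and 5, were the 3 with low Rpl34.

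When counts of Rpl34 and its 2 -ps rows were added, the normal nerves ran from 84.3 to 130 CPM and the tumours from 134 to 150.2 CPM, without overlap. The sum rose by a log2 fold change of 0.41 ± 0.0912 SE (adjusted p = 0.0107), close to the median of the members. Adding -ps rows in this way to each of the 59 members that have them gave 77 genes called higher, with 9.98% of all tested genes. It left the adjusted p of Rplp0 at 0.0786 and that of Rps18 at 0.107. This sum was chosen after the values were seen.

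Transcript length was set beside these changes, since the members are short: their principal mRNA, taken from GENCODE, had a median of 766.5 nt against 2652 nt over all tested genes. Fold changes in this comparison depended on length. Among other genes the median log2 fold change was 0.12 under 600 nt (n = 831, 14.4% called higher), 0.11 from 600 nt to under 1000 nt (n = 1236, 14.9%), -0.01 from 2000 nt to under 3000 nt and -0.14 from 5000 nt up (5.9% called higher, 18.6% lower). In the same ranges the members had medians of 0.50 (n = 25, 22 called), 0.48 (n = 38, 33 called), 0.46 (n = 2, both called) and 0.40 (Rps15a alone, called).

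The median of the members was above that of other genes in every length range. Few members are annotated as long, and these lengths are those of the annotation. Rps15a, at 5130 nt, ran from 80.6 to 153 CPM in normal nerve and from 139.7 to 154 CPM in the tumours (log2 fold change 0.40, adjusted p = 0.0297), and 3 of 12 fits that each left out 1 library lost the call (highest adjusted p 0.0658). Rps20, at 3706 nt, ran from 113 to 167 CPM and from 191 to 209 CPM (log2 fold change 0.46, adjusted p = 0.00414). Among genes under 1500 nt with a log2 CPM of at least 5.64, a limit that 67 of the 76 tested members of that length pass, 63 of the 67 (94%) were called higher, against 122 of 528 other genes (23.1%), with medians of 0.48 and 0.09. Levels within these genes were not matched.

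A correction for length in each library lowered the members' median log2 fold change from 0.48 to 0.35 and the number called higher from 75 to 63, and 8.55% of all tested genes were then called higher. Scaling the libraries on other genes under 1000 nt gave 63 calls and a median of 0.35, with the median of all tested genes at -0.16 and 5.97% of them called higher. In both fits 0 members were called lower. Rps4l and Rpl34 had log2 fold changes below 0 in both, -0.11 and -0.06 under the correction and -0.10 and -0.07 under the scaling.

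**Figure D4:**
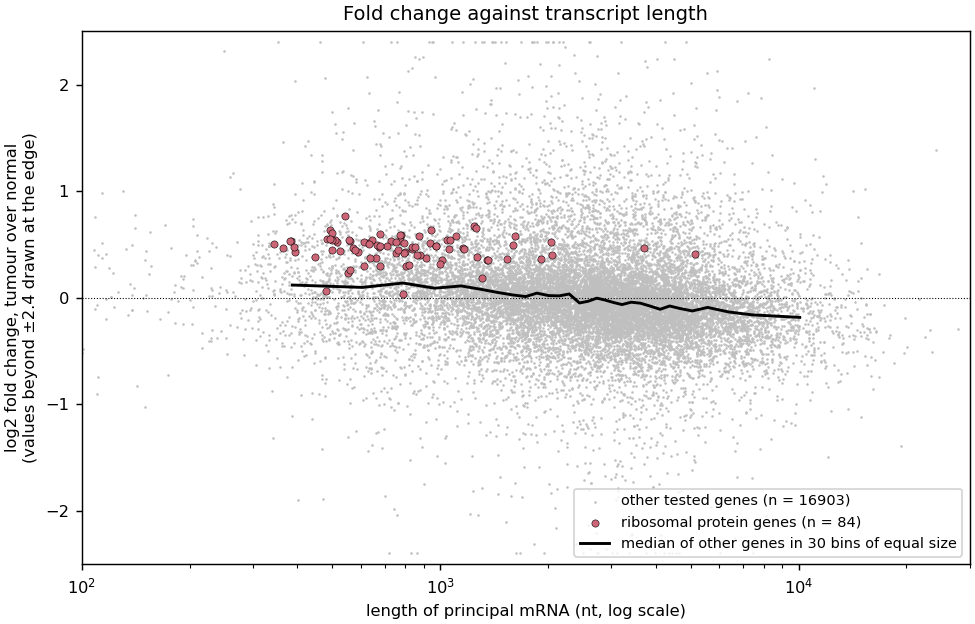
Log2 fold change (plexiform neurofibroma over normal nerve) against the length of the principal mRNA (nt, log scale) for 84 ribosomal protein genes (red) and other tested genes with an annotated length (grey). The line, the median of other genes in bins of equal size, falls with length from 0.12 for the shortest genes, and nearly all red points lie above it.

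Related gene groups, listed with earlier results of these data known, were read beside the members and beside the 10% of all tested genes called higher and the 8.63% called lower. Of the ribosomal proteins that the naming pattern misses, Gnb2l1 (the small subunit scaffold RACK1) and Fau, which encodes a ribosomal protein fused to a ubiquitin-like protein, rose, each with a log2 fold change of 0.53 (adjusted p = 0.00273 and 0.00298). The median of this list was 0.48, with 3 of 4 called higher.

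Other mRNAs with a TOP motif, which encode translation factors and other proteins, had a smaller median change. Of 20 such genes, 8 were called higher and 0 lower (10% and 8.63% of all tested genes), with a median log2 fold change of 0.17. Tpt1, encoding the translationally controlled tumour protein, rose from 657 ± 87.8 to 956 ± 82.7 CPM (SD, n = 6 each; log2 fold change 0.54, adjusted p = 0.00413). Pabpc1 (0.45), the poly(A) binding protein, and the elongation factor genes Eef1d (0.43) and Eef1a1 (0.41) were called too. The elongation factor gene Eef2 had a log2 fold change of 0.04 (adjusted p = 0.714) and Eef1g one of -0.00011 (adjusted p = 0.999), at 1076 and 252 CPM in normal nerve; these were picked after their values were seen, as examples of genes without a call.

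Genes that build ribosomes had a smaller median change than the ribosomal proteins. Of 26 ribosome assembly genes, 7 were called higher and 0 lower (10% and 8.63% of all tested genes), with a median log2 fold change of 0.13. Nhp2 (0.33) and Nop10 (0.28), proteins of the particles that modify ribosomal RNA, and Ftsj3 (0.27) and Wdr43 (0.24), factors of precursor processing, were among those called, with adjusted p from 0.00683 to 0.017. With libraries scaled on other genes under 1000 nt, only Nhp2 of these kept its call. Of 14 RNA polymerase I genes, only the subunit gene Znrd1 was called (log2 fold change 0.49, adjusted p = 0.0128), near the 10% of all tested genes called higher. The call of Znrd1 was lost when length was corrected on the longest transcript, but not on the principal mRNA. The median of the RNA polymerase I list was 0.15.

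The genes of the mitochondrial ribosome, which makes proteins inside mitochondria, mostly had no call. Of 77 mitochondrial ribosomal protein genes, 10 were called higher and 0 lower, beside the 10% of all tested genes called higher, and the median log2 fold change was 0.06. Mrpl52 (0.51), Mrpl33 (0.67), Mrpl36 (0.31) and Mrps28 (0.38) had the smallest p-values, with adjusted p from 0.00177 to 0.0131. The calls of Mrpl36 and Mrps28 were lost under each length correction. The difference between the cytosolic and the mitochondrial list was not tested as such.

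Regulators of ribosome synthesis and translation had calls in both directions. Of 16 genes for cap binding and mTORC1, 3 were called higher and 2 lower (10% and 8.63% of all tested genes), with a median of -0.07. Eif4ebp1, the translation repressor that mTORC1 phosphorylates, rose from 4.23 ± 0.563 to 7.49 ± 1.92 CPM (SD, n = 6 each; log2 fold change 0.82, adjusted p = 0.00763). Rps6, itself a member, and Eif4a1, the helicase of the cap complex (log2 fold change 0.25, adjusted p = 0.0176), were also higher. Tsc1, a brake on mTORC1, was lower (log2 fold change -0.22, adjusted p = 0.0128), and so was Rptor, which brings substrates to mTORC1 (-0.28, adjusted p = 0.0176; named after its value was seen). Both calls were lost under each length correction and with no filter on low counts, and that of Eif4a1 when libraries were scaled on other genes under 1000 nt.

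Of 8 genes of the MYC network, 1 was called higher and 1 lower, near the 10% and 8.63% of all tested genes. Mxd4, a MYC antagonist, rose (log2 fold change 0.65, adjusted p = 0.014) and Mnt, another, fell (-0.32, adjusted p = 0.0282). The call of Mnt was lost in 7 of 12 fits that each left out 1 library (highest adjusted p 0.0704), under each length correction and with no filter. Myc had a log2 fold change of 0.12 (adjusted p = 0.678), from 7.55 to 8.18 CPM on average, and Mycn one of 0.56 (adjusted p = 0.062).

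**Figure D5:**
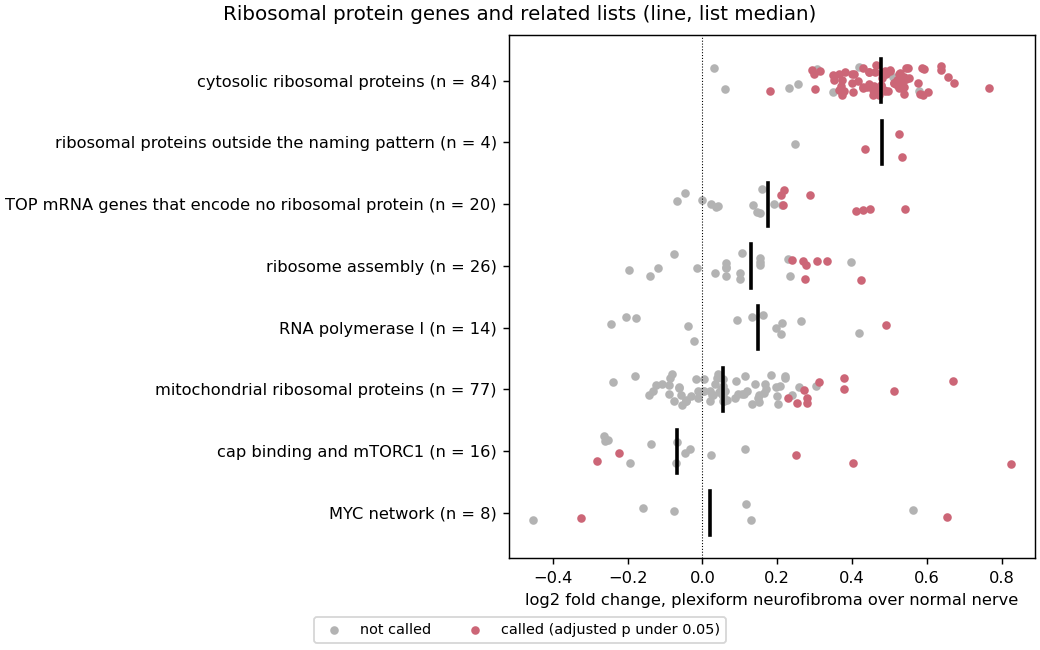
Log2 fold change (plexiform neurofibroma over normal nerve) of the tested genes of the ribosomal protein set and of 7 related lists (points, genes; red, adjusted p under 0.05; line, median of the list). The cytosolic ribosomal proteins sit in a band around 0.48, the mitochondrial ones spread around 0.06, and the regulators lie on both sides of 0.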

How the data were processed

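Per the labels, polyA RNA libraries were made from 800 ng of RNA with 10 cycles of amplification; a stranded mRNA kit and a TruSeq kit are both named. The submitters' processing notes name build mm10, DESeq2, Salmon 0.60, STAR 2.4.2a and FastQC, without roles or order. Neither annotation nor strand setting is given in the sources used here. For 12 samples the authors deposited expected counts per gene symbol, without normalization; 84.1% to 86.5% of a library's values were whole within 0.001. Estimated counts share reads between near-identical genes, which makes paralogs and pseudogenes uncertain.

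These expected counts were rounded and filtered with filterByExpr, leaving 17236 genes. Groups were compared with edgeR 4.0.16, quasi-likelihood F test (R 4.3.3, limma 3.58.1), using TMM factors and robust fitting without covariates, with Benjamini-Hochberg adjustment over all tested genes and calls at an adjusted p under 0.05. The comparison was tested on simulated data first. The p-values measure the spread between these samples, which may be technical. No libraries of a group were alike within counting noise (lowest chi-square per degree of freedom 12.6).

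Lengths come from GENCODE vM21 on GRCm38, the assembly of mm10; 45187 symbols matched directly, 627 by an older symbol, and 1666 not. The principal mRNA is the APPRIS principal transcript of median length. Length was corrected by a lowess curve (span 0.3) per library. Promoters come from RefSeq GRCm38.p6. Other settings were RLE and upper-quartile factors, TMM on other gene sets, other filters (none, or CPM above 1 in 6 libraries), DESeq2 1.42.0, limma-voom with sample weights, 4 covariates and leaving out each library. The correction on the principal mRNA, the scaling on other genes under 1000 nt, the fit without 3 libraries and the sums with -ps rows were chosen after seeing the data.

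The members and lists were chosen with earlier results of these data known. Named members are the 10 highest per kb, the 8 with the largest and the 8 with the smallest log2 fold change, paralog pairs, untested genes, and Rpl5, Rpl11, Rps19, Rps14, Rps6 and Rpsa. From each related list up to 4 called genes were named by p-value. Other members were named after their values were seen. Some genes these rules give are not reported here.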

Additional observations from a re-analysis of the deposited data

Results flagged for a closer look

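The highest or lowest library of a group lay far from the rest of its group, by Dixon's test, in 8 of 130 groups checked, where chance gives about 1 in 20. Tumour replicate 4 was the highest tumour for Rps3a1 (449.9 CPM, next 410.8), Rpl23a (270.7 CPM, next 243.3), Rpl7 (436.3 CPM, next 404.5) and Rpl22 (188.4 CPM, next 169.1). It was also the library with the largest share of ribosomal protein counts, 1.91%. Tumour replicate 2 was lowest for Rpl9 (237.5 CPM, next 269.6). The log2 ratio of Rps27l to Rps27 was highest in tumour replicate 3 (-2.613, next -2.791). Among mitochondrial ribosomal protein genes, Mrpl52 was highest in normal nerve replicate 6 among the normal nerves (24.63 CPM, next 20.33) and lowest in tumour replicate 1 among the tumours (25.8 CPM, next 29.69).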

How the results depend on the processing

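No paired analysis was possible because the labels give no replicate numbers; those used here only name the samples. In every alternative fit 0 members were called lower and 62 to 78 were called higher, with a median log2 fold change between 0.35 and 0.56. Leaving out 1 library gave 65 (without tumour replicate 4) to 78 calls (without normal nerve replicate 6), with medians of 0.41 (without normal nerve replicate 5) to 0.56. Of all tested genes, 6.3% to 14.6% were called higher in these fits. The 65 genes called in all 12 such fits are among the 75. Covariates for sex-linked transcripts, sensory neuron, skeletal muscle and central nervous system markers gave 72, 77, 71 and 77, with 9.52%, 13.1%, 9.65% and 11.8% of all tested genes called higher. No marker list with a call, such as Schwann, fibroblast and perineurium or macrophage, was entered as a covariate. The length corrections gave 63 (longest transcript) and 62 (principal mRNA).

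The direction changed for a pair of uncalled genes. Rps4l had log2 fold changes of -0.10 when scaled on genes under 1000 nt, and -0.11 and -0.097 under the length corrections, and ran from -0.033 to 0.11 when 1 library was left out. Rpl34 had -0.067, -0.058 and -0.082 in the same fits, -0.027 under limma-voom, and ran from -0.042 to 0.23. The cause was not tested. The log2 ratio of Rps4l to Rps4x ran from -0.54 to -0.38 without 1 library, with an adjusted p above 0.05 in 4 of 12.

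Counts in the related lists moved more, and so did the share of all tested genes called. That share was 10% higher and 8.63% lower in the reported fit, 5.97% and 21.4% when scaled on genes under 1000 nt, 8.55% and 6.47% (longest transcript) or 8.7% and 6.57% (principal mRNA) under the length corrections, 4.24% and 2.8% with no filter, 13.1% and 11.9% by DESeq2, 16.6% and 15.7% by limma-voom, 13.1% and 12.4% with the sensory neuron covariate, and 12.6% and 11.7% without the 3 libraries. Scaling on genes under 1000 nt lowers all fold changes; it gave 6 cap and mTORC1 genes lower, 2 MYC network genes lower, 1 assembly gene higher and 3 lower, 2 RNA polymerase I genes lower, 4 TOP genes higher, and 3 mitochondrial genes higher and 5 lower. The length corrections gave 0 cap and mTORC1 and 0 MYC genes lower; the one on the longest transcript gave 0 RNA polymerase I and 6 mitochondrial genes higher, and the one on the principal mRNA gave 5 TOP and 4 mitochondrial genes higher. With no filter 0 cap and mTORC1 and 0 MYC genes were lower and 6 mitochondrial genes higher. DESeq2 gave 5 cap genes lower, 2 MYC genes higher, 1 RNA polymerase I gene lower and 17 mitochondrial genes higher. Limma-voom gave 5 cap genes lower, 2 MYC genes lower, 12 assembly and 5 RNA polymerase I genes higher, 1 RNA polymerase I gene lower and 20 mitochondrial genes higher. The sensory neuron covariate gave 5 cap genes lower and 17 mitochondrial genes higher. Without the 3 libraries that stood apart, 5 cap and 2 MYC genes were lower and 5 RNA polymerase I genes higher. Without 1 library, cap genes called lower ranged from 2 to 5, MYC genes higher from 1 to 2 and lower from 0 to 1, assembly genes higher from 4 to 11, RNA polymerase I genes higher from 1 to 4 and lower from 0 to 1, TOP genes higher from 5 to 9 and mitochondrial genes higher from 5 to 18.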

Other observations

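Pseudogene rows other than Rpl34-ps1 also switched between libraries, picked after their values were seen and without regard to group. Rps13-ps1 measured 0.253, 0.304, 17.9, 13.9, 11.52 and 0.265 CPM in normal nerve replicates 1 to 6 and 19.1, 0.686, 0.406, 0.221, 17.8 and 20.3 CPM in the tumours. Rpl10-ps1 measured 2.88, 0, 28.9, 19.8, 0.569 and 0.0662 CPM in normal nerve and 0, 0, 19.2, 0.0552, 1.28 and 21.4 CPM in the tumours. Both rows had libraries near 0 and libraries above 10 CPM in each group, and neither was called (adjusted p = 0.838 and 0.902). Rps13, the parent of the first, was called higher (log2 fold change 0.43, adjusted p = 0.0196), and so was Rpl10, the parent of the second (0.43, adjusted p = 0.00474).

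Some -ps rows instead followed their parents. Rps16-ps2 rose from between 20.7 and 25.1 CPM in normal nerve to between 32.7 and 45.4 CPM in the tumours (log2 fold change 0.69, adjusted p = 0.00115), next to 0.57 for Rps16 (adjusted p = 0.0037). Rpl10a-ps1 had a log2 fold change of 0.77 (adjusted p = 0.00299) and Rpl10a one of 0.53 (adjusted p = 0.00287). Of the 53 tested -ps rows, 46 had log2 fold changes above 0, with the identical Rpl35a rows each counted.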
